A study of Gelatoporia subvermispora and Trametes versicolor with 24 samples.

Results

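The 150 genes with the highest mean level over 12 RNA sequencing libraries of Trametes versicolor were screened, and the 134 whose group means stayed within fixed limits between culture conditions make up the set of abundant transcripts described here. They are 134 of the 14570 T. versicolor genes in the tables, and of 26883 genes in the series, which also holds Gelatoporia subvermispora. Levels are CPM, the reads of a gene divided by all reads counted in genes of that library and scaled to 1000000. A screened gene was kept when the group means of log2(CPM + 1) differed by less than 1.5 between static and agitated culture, both without and with antioxidants, and by less than 0.9 between static culture with and without antioxidants. The values that chose the members are therefore their mean level and these 3 differences, which are given below as descriptions and support nothing.

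T. versicolor is a white-rot fungus, a wood-decaying basidiomycete that breaks down lignin as well as cellulose. The strain, FP-10164 in the labels, was grown at 28 °C in 25 mL of Czapek-Dox with cellobiose (15 mM), a disaccharide released from cellulose. After 6 days every culture was given 4-hydroxybenzoate at about 2 mM, an aromatic acid of the kind found in plant cell walls, and mycelium was taken 24 h later. The 4 groups of 3 libraries were static cultures with antioxidants, static cultures without, agitated cultures (220 rpm) with antioxidants, and agitated cultures without. The antioxidants were ascorbic acid at 5 mM together with α-tocopherol at 1 mM, given 30 min before the 4-hydroxybenzoate. No group lacked 4-hydroxybenzoate, so nothing here bears on its effect. The labels do not say whether replicates came from separate flasks, so p-values measure only the spread between these samples, which may be technical.

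In growing mycelium a small part of the genes supplies a large part of the messenger RNA. Ribosomal proteins, translation factors, enzymes of central metabolism, cell wall proteins and hydrophobins, the small surface proteins of hyphae, are commonly among the most abundant transcripts of filamentous fungi. Which of these the members encode is not known here, because the tables pair no number with a name. Genes are therefore given by number, and no role is assigned to any of them.

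Libraries held 3431340 to 6725806 gene reads. The member counted least in any library, gene7847, still had 643 reads there, which puts its counting error at 3.94% of the value, and 132 of the 134 members had over 1000 reads in every library. Counting error is thus small beside the spread between replicates given below. Agitated antioxidant replicate 1 stood apart from its group for the most members, and several other libraries did so for fewer, as counted below. The shares given here are relative: in bulk mycelium, fewer cells of a type and less RNA per cell cannot be told apart.

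The 134 members together held 32.7 to 43.2% of all gene reads. Their summed share was 41.8, 43.2 and 41.5% in static cultures with antioxidants and 39.0, 32.9 and 38.1% in static cultures without. It was 32.7, 37.9 and 34.3% in agitated cultures with antioxidants and 36.3, 34.4 and 34.7% in agitated cultures without. The static antioxidant libraries lay above the other 9, while the 3 other groups overlapped. As group means this was 42.2% ± 0.95, 36.7% ± 3.28, 35.0% ± 2.69 and 35.1% ± 1.03 (SD, n = 3 each) in the same order. The number of genes needed to reach 50% of the gene reads was lowest in static cultures with antioxidants, at 236 to 270 genes. It was 328 to 443 in static cultures without, 286 to 382 in agitated cultures with and 321 to 347 in agitated cultures without antioxidants. In G. subvermispora the 150 most abundant genes, screened for abundance alone, held 26.6 to 37.6% of the gene reads, against 34.5 to 44.9% for the 150 of T. versicolor. The G. subvermispora cultures were also grown for more days before harvest, so species and culture age cannot be told apart here.

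**Figure D1:**
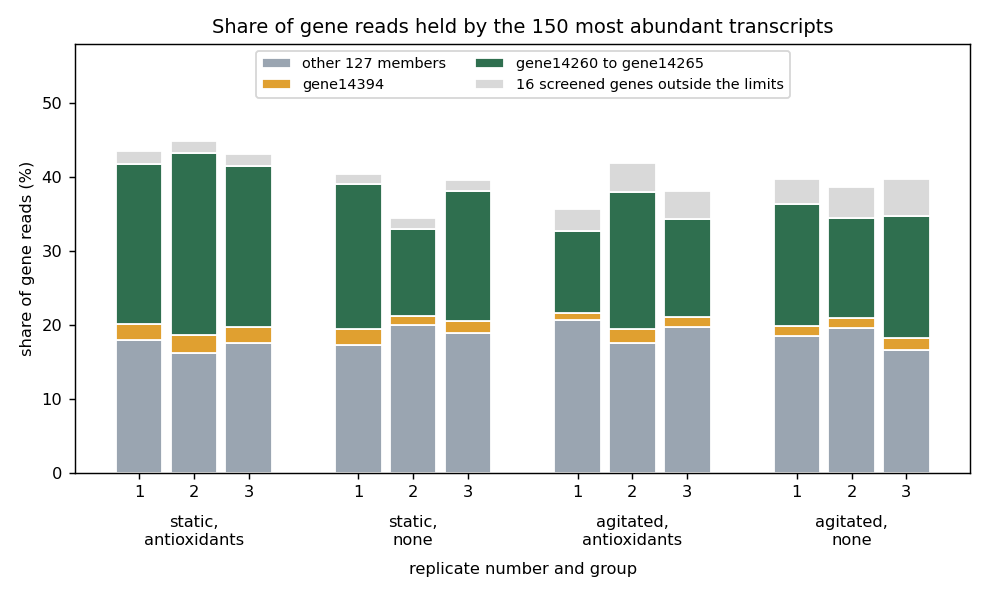
Stacked bars give the share of gene reads (%, from 0) held in each of the 12 libraries by gene14260 to gene14265, by gene14394, by the other 127 members and by the 16 screened genes outside the limits. The segment of gene14260 to gene14265 runs from 11.0 to 24.6%, and the segment of the other 127 members from 16.2 to 20.7%.

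The levels were very uneven within the set. Only 5 members averaged over 10000 CPM, 74 lay between 1000 and 10000 CPM and 55 at 1000 CPM or below. The median member averaged 1150 CPM and the lowest, gene9424, averaged 686 CPM. gene14264 was the most abundant gene in 12 of 12 libraries. It reached 96980, 109762 and 97285 CPM in static cultures with antioxidants, 87408, 55618 and 82686 CPM in static cultures without, 52308, 82194 and 64214 CPM in agitated cultures with, and 85932, 58873 and 78749 CPM in agitated cultures without antioxidants. Its 3 static antioxidant values exceeded all others, and the other 3 groups overlapped widely.

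A single run of consecutive running numbers, gene14260 to gene14265, was found among the members, and it supplied 5 of the 6 most abundant ones. Whether the numbers follow the genome is not stated in the files. The 10 numbers before the run had 0 reads in all 12 libraries, as did 9 of the 10 numbers after it, the tenth having 1 read in all. For comparison, 11.8% of the genes in the tables had 0 reads. The 6 genes together took 21.6, 24.6 and 21.7% of the gene reads in static cultures with antioxidants and 19.6, 11.8 and 17.5% in static cultures without. They took 11.0, 18.4 and 13.2% in agitated cultures with antioxidants and 16.5, 13.5 and 16.5% in agitated cultures without. One of the static libraries without antioxidants, replicate 2, lay with the lowest of the agitated libraries. Of the static libraries without antioxidants, replicates 1 and 3 lay above every agitated library except agitated antioxidant replicate 2 in the case of replicate 3.

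Within the run 4 genes kept close to fixed proportions while their sum more than doubled between libraries. gene14264 made up 43.6 to 52.0% of the run, gene14262 20.7 to 25.6%, gene14263 14.7 to 19.3% and gene14260 7.14 to 9.53%. gene14261 varied more, from 2.25% in agitated antioxidant replicate 1 to 4.88%. gene14261 stood at 10534, 11129 and 10344 CPM in static cultures with antioxidants and at 8728, 4857 and 8329 CPM in static cultures without. It stood at 2478, 8998 and 6266 CPM in agitated cultures with antioxidants and at 5146, 6171 and 7056 CPM in agitated cultures without, so the group of agitated antioxidant cultures spanned both low and high values. gene14265, the weakest of the run, did not follow the others. It had 767, 733 and 667 CPM in static cultures with antioxidants, 627, 805 and 719 CPM in static cultures without, 645, 1186 and 1250 CPM in agitated cultures with, and 991, 1380 and 1167 CPM in agitated cultures without antioxidants. Its share of the run was lowest, at 0.298%, in static antioxidant replicate 2, where the run was highest.

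Outside the run, gene14394 had the pattern most like it. Likeness was measured, after the run had been seen, as the SD over 12 libraries of the log2 ratio of a gene to the run's sum, among the 5643 genes averaging at least 20 CPM. This SD was 0.12 for gene14394, against 0.23 for the next gene outside the run and a median of 0.50. The genes of the run are part of that sum, so each was also set against the sum of the other 5. The SD was then 0.14 for gene14264, 0.11 for gene14262, 0.13 for gene14263 and 0.12 for gene14260, and 0.35 and 0.63 for gene14261 and gene14265. gene14394 had 21947, 24276 and 21963 CPM in static cultures with antioxidants and 22254, 11410 and 17353 CPM in static cultures without. It had 9608, 18913 and 13543 CPM in agitated cultures with antioxidants and 13416, 13635 and 16093 CPM in agitated cultures without. As for the run, it was highest in static antioxidant replicate 2 and lowest in agitated antioxidant replicate 1. Its neighbours by number were weak, the highest of the 10 before and the 10 after averaging 16.5 and 33.7 CPM.

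**Figure D2:**
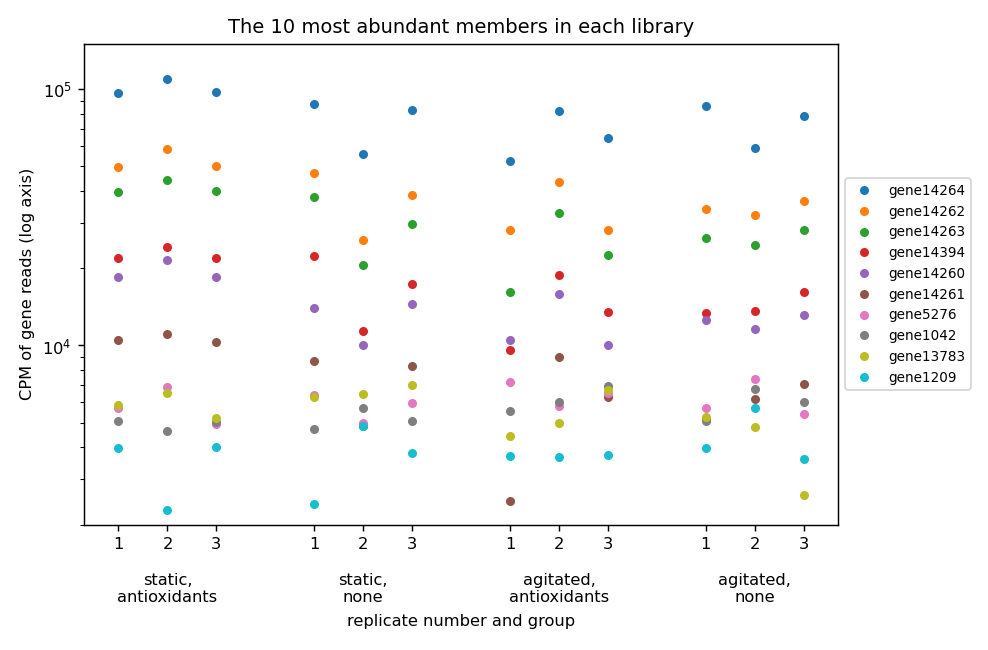
Points give the level of the 10 most abundant members (CPM of gene reads, log axis) in each of the 12 libraries, grouped by culture condition. The 5 genes of the run shown and gene14394 all lie lower in static replicate 2 without antioxidants than in replicates 1 and 3 of that group, as does gene5276, while gene1042 and gene1209 lie higher there.

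The 6 genes of the run and gene14394 together held 11.99 to 26.99% of the gene reads. Some classes of reads that HTSeq did not assign moved broadly with them. The share of all reads outside genes was 14.7, 15.3 and 14.5% in static cultures with antioxidants, 13.96, 11.7 and 13.2% in static cultures without, 10.9, 13.3 and 11.7% in agitated cultures with, and 12.3, 12.1 and 12.5% in agitated cultures without antioxidants. The share not aligned was 20.7, 22.3 and 21.2%, then 17.3, 14.8 and 19.2%, then 14.4, 18.9 and 16.4%, then 17.7, 15.3 and 18.1% in the same order. Agitated antioxidant replicate 1 was lowest and static antioxidant replicate 2 highest in both, as in the share of the run. In static cultures without antioxidants, replicate 1 had more of the run than replicate 3 but a smaller share not aligned. Low-quality and ambiguous reads were also lowest in agitated antioxidant replicate 1, at 10.4 and 0.369% of all reads. They were highest in static replicate 1 without antioxidants, at 13.2 and 0.984%. The part of unassigned reads in the levels of these 7 genes was not tested.

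As a sum, the other 127 members were far steadier, which does not describe them gene by gene. Single genes of the 7 had ranges of log2(CPM + 1) over the 12 libraries from 1.07 for gene14264 to 2.17 for gene14261. The median range over all members was 1.11. Of the gene reads outside the 7 genes they held 23.6, 22.2 and 23.1% in static cultures with antioxidants and 21.995, 22.96 and 23.3% in static cultures without. In agitated cultures they held 23.5, 22.1 and 23.04% with antioxidants and 22.5, 22.9 and 20.3% without. The 4 groups overlapped, and all 12 libraries lay between 20.3 and 23.6%. Of all gene reads, the same 127 genes held 16.2 to 20.7%.

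The most abundant of these genes differed in steadiness. The range of log2(CPM + 1) over the 12 libraries was 0.58 for both gene5276 and gene1042. It was 1.42 for gene13783 and 1.32 for gene1209, above the members' median of 1.11. gene5276 had 5679, 6885 and 4941 CPM in static cultures with antioxidants, 6403, 4986 and 5974 CPM in static cultures without, 7175, 5806 and 6551 CPM in agitated cultures with, and 5696, 7411 and 5380 CPM in agitated cultures without antioxidants. All 4 groups overlapped. gene1042 had 5062, 4638 and 5029 CPM in static cultures with antioxidants, 4735, 5700 and 5063 CPM in static cultures without, 5528, 6037 and 6924 CPM in agitated cultures with, and 5087, 6734 and 6012 CPM in agitated cultures without antioxidants. Its static antioxidant values lay below every agitated value, by a small margin. gene13783 had 5844, 6503 and 5190 CPM in static cultures with antioxidants, 6304, 6491 and 7017 CPM in static cultures without, 4424, 4995 and 6681 CPM in agitated cultures with, and 5268, 4816 and 2616 CPM in agitated cultures without antioxidants. Replicate 3 of the last group was its lowest library. gene1209 varied widely within 3 groups and little in agitated cultures with antioxidants, with 3993, 2285 and 4006 CPM in static cultures with antioxidants, 2412, 4862 and 3809 CPM in static cultures without, 3696, 3666 and 3737 CPM in agitated cultures with, and 3992, 5708 and 3596 CPM in agitated cultures without antioxidants.

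Being abundant on average did not mean being among the top 150 everywhere. Of the 134 members, 75 ranked in the top 150 of all 12 libraries, and 7 did so in fewer than 6. gene1976, named because it was the least frequent, did so in 2 libraries and moved between rank 75 and rank 191. By group means, 122 members were in the top 150 of static cultures with antioxidants, 123 in that of static cultures without, 120 in that of agitated cultures with and 117 in that of agitated cultures without, and 102 were in all 4 lists. Over the 12 libraries the highest level was less than 2-fold the lowest for 52 members, 2-fold to 4-fold for 68 and 4-fold or more for 14, on the log2(CPM + 1) scale, where the median range was 1.11.

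The steadiest member was gene4732. It had 691, 669 and 629 CPM in static cultures with antioxidants, 682, 649 and 642 CPM in static cultures without, 793, 723 and 844 CPM in agitated cultures with, and 811, 849 and 707 CPM in agitated cultures without antioxidants. All static values of gene4732 lay below all agitated ones, within a range of 0.43 on the log2(CPM + 1) scale. The most variable was gene5608, with a range of 3.61. It had 1422, 1367 and 1409 CPM in static cultures with antioxidants, 1650, 603 and 1211 CPM in static cultures without, 134, 1216 and 990 CPM in agitated cultures with, and 523, 828 and 1001 CPM in agitated cultures without antioxidants. Single libraries set its extremes, and without agitated antioxidant replicate 1 its lowest level would be 523 CPM.

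The spread inside a group does not enter the rule, apart from its effect on the means. The median SD of log2 CPM over 3 replicates was 0.13 for members and 0.19 for all 10505 genes tested in static cultures with antioxidants, and 0.19 and 0.20 in static cultures without. In agitated cultures it was 0.23 and 0.26 with antioxidants and 0.23 and 0.24 without. Of the 134 members, 43 exceeded the median of all genes in static cultures with antioxidants, 62 in static cultures without, 58 in agitated cultures with and 66 in agitated cultures without. By the other measure of spread, edgeR's biological coefficient of variation per gene over all 4 groups, the median was 19.1% for members and 17.2% for all genes tested, so the order was reversed. Of the 7 genes made up of the run and gene14394, gene14265 did not share the pattern of the others. The spread of all 7 differed from group to group. Their median SD was 0.12 in static cultures with antioxidants, 0.54 in static cultures without, 0.53 in agitated cultures with and 0.17 in agitated cultures without antioxidants.

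**Figure D3:**
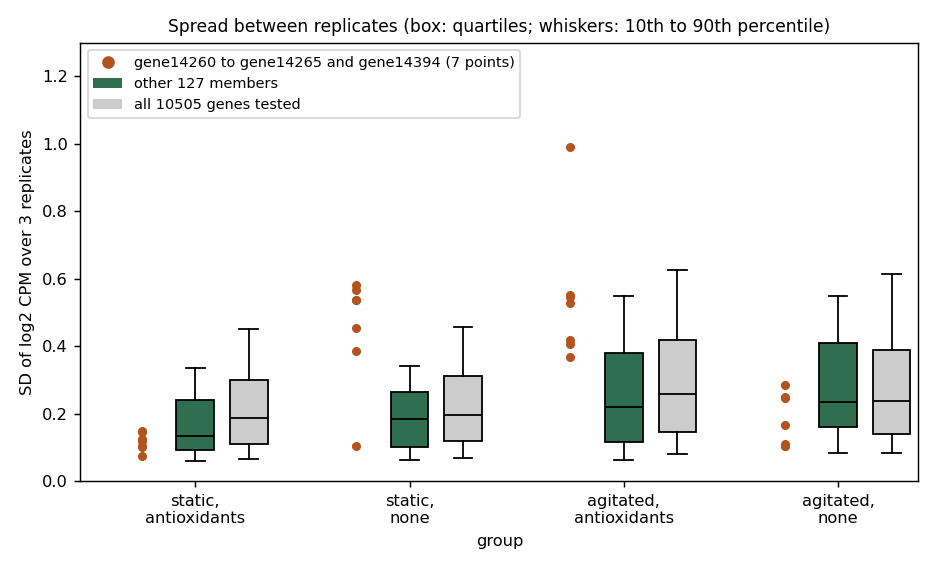
For each group the SD of log2 CPM over 3 replicates is plotted. Points are the genes of the run and gene14394, 7 in all. Boxes with median and quartiles are the other 127 members and all 10505 genes tested. Whiskers run from the 10th to the 90th percentile. The 7 points sit low in static cultures with antioxidants, at a median of 0.12. In static cultures without, their median is 0.54 and they run from 0.11 to 0.58.

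Some libraries stood apart from the other 2 of their group for particular members. The counts that follow are of members alone and are not set beside all genes, so they do not show a trait particular to members. In agitated antioxidant replicate 1, 20 members were over 1.5-fold above both other replicates and 15 over 1.5-fold below both. Among those above, chosen for this contrast after their values were seen, gene300 had 6078 CPM against 2411 and 2631 CPM in replicates 2 and 3, and gene7176 had 3143 CPM against 1227 and 1122 CPM. gene5608 was 0.122 times the mean of the other 2. No other library had as many. In agitated cultures without antioxidants, 7, 7 and 2 members were above and 6, 2 and 8 below in replicates 1, 2 and 3, and gene7847 stood at 95.6 CPM in replicate 1 against 931 and 561 CPM in replicates 2 and 3. In agitated antioxidant replicate 3 no member was above or below by this measure, and in replicate 2 there were 2 above, gene14262 and gene14260.

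In static cultures such departures were fewer. Static replicate 2 without antioxidants had 6 members above and 3 below its group, replicate 1 had 1 below, and static antioxidant replicate 2 had 8 below and 0 above. In static replicate 2 without antioxidants the run was lowest among the static libraries, and in static antioxidant replicate 2 it was highest. Of the 6 members above in the former, 3 were among the 8 below in the latter: gene5327, gene6798 and gene7216. This overlap is not set beside all genes. gene6798 had 5071, 2781 and 4363 CPM in static cultures with antioxidants, 3347, 6621 and 4101 CPM in static cultures without, 3645, 2211 and 2449 CPM in agitated cultures with, and 2499, 3043 and 1569 CPM in agitated cultures without antioxidants. These libraries belong to different groups, and the labels do not say that replicate 2 of one was grown with replicate 2 of the other. Of all 134 members, 37 had their highest level of the 12 libraries in agitated antioxidant replicate 1 and 22 their lowest. In static antioxidant replicate 2, 31 had their lowest, and 28 in agitated replicate 3 without antioxidants. These counts too are not set beside all genes.

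The comparison of antioxidants with none in agitated culture asked whether ascorbic acid and α-tocopherol altered the levels of these transcripts. Of the 4 comparisons that change 1 factor, it is the one that the rule does not use directly, although the 3 limits together keep its difference of means below 3.9. Of the 134 members, 0 were called by edgeR's quasi-likelihood test at an adjusted p under 0.05, where 0.0286% of the 10505 genes tested were called, 3 genes in all and each of them higher. At an unadjusted p under 0.05 the members numbered 4, or 2.99%, against 684 genes or 6.51% of all tested. limma-voom called 0 members and 3 genes in all (0.0286%), and DESeq2 called 1 member, gene8796, and 25 genes in all (0.238%). Since nearly no gene of the genome was called, a count of 0 is not particular to the members.

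Most of the estimated effects were bounded. The edgeR log2 fold changes of the 134 members ran from -0.46 to 0.82 with a median of 0.07, beside a median of 0.01 over all genes tested, and the median SE was 0.21. As plain differences of mean log2(CPM + 1), the scale of the limits, they ran from -0.55 to 1.08, the highest being that of gene7847, whose agitated replicate 1 without antioxidants lay far below the other replicates. For 120 members, or 89.6%, the 95% interval lay within a 2-fold change in either direction, as it did for 77.1% of all genes tested. For the other 14 a change of 2-fold is not bounded by these data. The genes of the run and gene14394, 7 in all, had intervals within 2-fold, with log2 fold changes of -0.18 to -0.01. Their sign depended on single libraries. Without agitated antioxidant replicate 1, in which the run was lowest, all 7 were above 0, at 0.0035 to 0.35. Without agitated antioxidant replicate 3, 3 of the 7 were above 0, and without agitated replicate 3 of the cultures lacking antioxidants, 4 were.

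**Figure D4:**
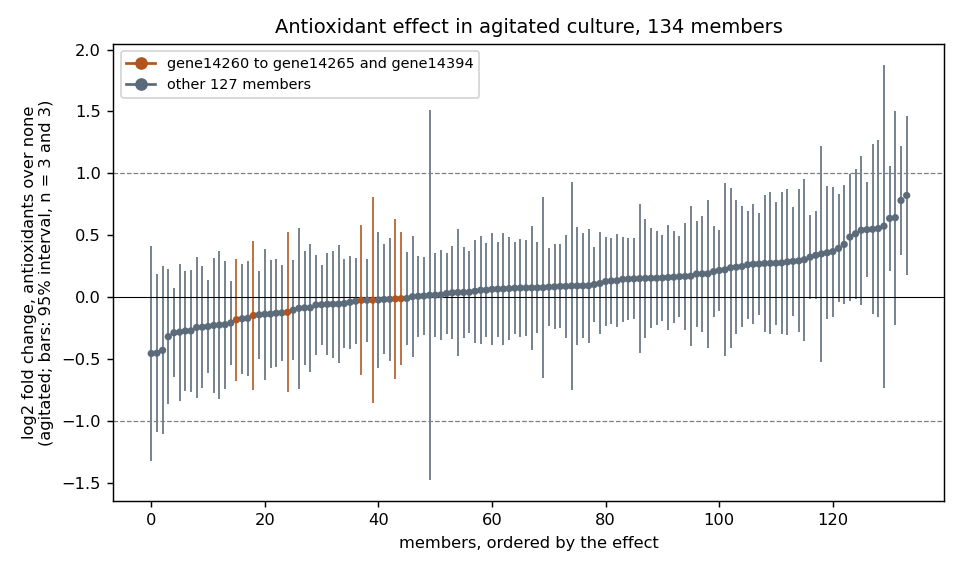
Log2 fold changes of the 134 members, antioxidants over none in agitated culture (n = 3 and 3), are drawn in rising order with 95% intervals, and dashed lines mark 2-fold. Values run from -0.46 to 0.82, and the intervals of 120 members stay between the lines.

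The member of smallest p was gene8796. It had 2249, 2823 and 2985 CPM in agitated cultures with antioxidants and 1151, 1692 and 1885 CPM in agitated cultures without, so the groups did not overlap. The static cultures held 1668, 1602 and 1748 CPM with antioxidants and 1533, 1534 and 1713 CPM without, close to the agitated cultures without. The log2 fold change of gene8796 in agitated culture was 0.78 (SE 0.21, edgeR adjusted p = 0.495), higher in 3 of 3 antioxidant libraries. It ranged from 0.59 to 0.94 when each library was left out in turn, with an edgeR adjusted p of at least 0.167, and DESeq2 gave an adjusted p of 0.0381.

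The other 3 members at an unadjusted p under 0.05, named after their values were seen, were also higher with antioxidants. gene10240 had 4919, 4317 and 5284 CPM in agitated cultures with antioxidants and 3775, 3280 and 2380 CPM in agitated cultures without, and gene878 had 3302, 2119 and 2556 CPM with and 1879, 2021 and 1608 CPM without. Neither pair of groups overlapped. gene1001 had 3607, 1698 and 1817 CPM with antioxidants and 861, 1821 and 1366 CPM without, and these groups overlapped. Their log2 fold changes were 0.64 for gene10240, 0.54 for gene878 and 0.82 for gene1001, and the edgeR adjusted p was 0.644, 0.644 and 0.682. In total the groups did not overlap for 5 members that were higher and 1 that was lower with antioxidants, which is 3.73% and 0.746% of the members beside 3.58% and 4.65% of all genes tested. The member that was lower, gene12949, had 1514, 1627 and 1649 CPM with antioxidants and 1817, 1916 and 1860 CPM without.

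The 3 comparisons that set the limits are given as descriptions. Between static and agitated culture without antioxidants the members' differences of mean log2(CPM + 1) ran from -1.28 to 1.32 with a median of 0.07, and 79 were above and 55 below 0. With antioxidants they ran from -1.36 to 1.36 with a median of -0.15, and 56 were above and 78 below 0. Between static culture with and without antioxidants they ran from -0.55 to 0.83 with a median of -0.12, and 96 of 134 were below 0. CPM are shares of a common total that the run and gene14394 also enter, and the part of this in these differences was not tested. The counts above and below 0 are of members alone. By a different measure, the median edgeR log2 fold change with TMM scaling, antioxidants in static culture gave 0.03 for members and -0.01 for all genes tested. With scaling to library totals alone these were -0.13 and -0.18, so a shift below 0 was not particular to the members. For static against agitated culture, library totals gave members and all genes 0.07 and 0.11 without antioxidants, and -0.16 and -0.07 with them.

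Differences between static and agitated culture were still called for some members within the limits. Without antioxidants edgeR called 10 members higher and 22 lower in static than in agitated culture, 23.9% of the members, where 28.9% of all genes tested were called, 13.1% higher and 15.8% lower. With antioxidants it called 6 higher and 24 lower, where 27.1% of all genes tested were called, 13.2% higher and 13.9% lower. Since the limits removed the genes that differed most, nothing is read from these shares. Of the members, 4 were called higher and 15 lower in both antioxidant states, and 91 were called in neither, which is 2.99, 11.2 and 67.9% of the members beside 8.51, 9.96 and 62.6% of all genes tested. Another scaling moved the split. Under library totals 47.1% of the called members were higher without antioxidants, against 31.3% with TMM, and with upper-quartile scaling 32.1% were higher with antioxidants, against 20%. In these cases all genes moved likewise. Of all genes called without antioxidants, 59.1% were higher under library totals and 45.2% with TMM. With antioxidants 55.7% were higher under upper-quartile scaling and 48.8% with TMM. Library totals with antioxidants moved members and all genes in opposite directions, with 21.2% of the called members and 44.3% of all genes called being higher. Library totals put the median log2 fold change of all genes at 0.11 for static against agitated culture without antioxidants and at -0.18 for antioxidants in static culture. Between static cultures with and without antioxidants, edgeR called 0 members, where 0.419% of all genes tested were called, 0.409% higher and 0.00952% lower, and 6 members, or 4.48%, had an unadjusted p under 0.05, as did 5.57% of all genes tested.

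gene13367 and gene5327, chosen for this contrast after their values were seen, are examples of differences that the limits still admit. On the scale of the limits, gene1150 at 1.32 without antioxidants and gene4182 at -1.36 with them came nearest to the limits. gene13367 had 731, 380 and 610 CPM in static cultures with antioxidants, 573, 685 and 440 CPM in static cultures without, 1173, 1171 and 1209 CPM in agitated cultures with, and 1804, 944 and 1460 CPM in agitated cultures without antioxidants. gene5327 had 2485, 1240 and 2084 CPM in static cultures with antioxidants, 1726, 3125 and 1850 CPM in static cultures without, 710, 840 and 1043 CPM in agitated cultures with, and 1175, 1059 and 560 CPM in agitated cultures without antioxidants. Static and agitated values did not overlap for either gene, gene13367 being lower and gene5327 higher in static culture. Both were picked on this difference, and it is not set beside all genes.

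**Figure D5:**
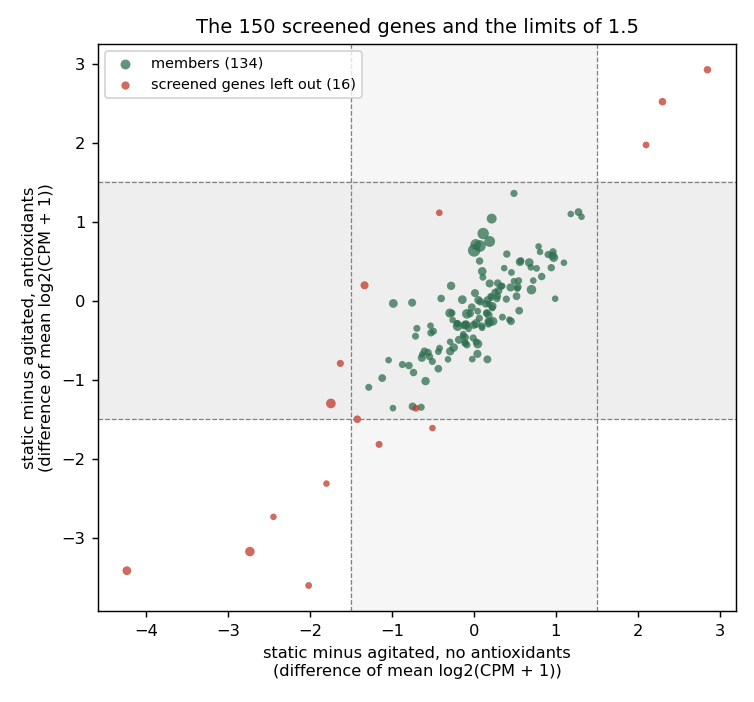
Each of the 150 screened genes is placed by its difference of mean log2(CPM + 1) between static and agitated culture, without antioxidants on the horizontal and with them on the vertical axis. Dashed lines mark the limits of 1.5, larger points stand for higher mean CPM, and the 16 genes left out are red. Of these, 11 lie toward lower levels in static culture on both axes, and red points inside the dashed lines exceed the limit between static cultures.

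The limits removed 16 of the 150 screened genes. Of these, 10 exceeded the limit for static against agitated culture without antioxidants, 11 the one with antioxidants and 5 the one for antioxidants in static culture, some of them more than 1. The most abundant gene left out was gene7169, at rank 7. It had 3622, 2910 and 3568 CPM in static cultures with antioxidants, 3158, 2818 and 2882 CPM in static cultures without, 8465, 8018 and 8284 CPM in agitated cultures with, and 14957, 6719 and 9600 CPM in agitated cultures without antioxidants. Together the 16 held 1.66% ± 0.0352 of the gene reads in static cultures with antioxidants, 1.504% ± 0.0536 in static cultures without, 3.64% ± 0.515 in agitated cultures with and 4.28% ± 0.817 in agitated cultures without (SD, n = 3 each).

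The members nearest each limit and the nearest genes outside it were as follows. For static against agitated culture without antioxidants, the member nearest the limit was gene1150, at a difference of 1.32, and the nearest gene outside was gene9171, at -1.63. With antioxidants these were gene4182 at -1.36 and gene10885 at -1.5003. For antioxidants in static culture they were gene4440 at 0.83 and gene7679 at -0.97. gene4440 had 2928, 3977 and 2933 CPM in static cultures with antioxidants, 1615, 1667 and 2238 CPM in static cultures without, 2970, 3517 and 3518 CPM in agitated cultures with, and 2900, 5076 and 3158 CPM in agitated cultures without antioxidants. Static cultures without antioxidants were the low group for gene4440, and the other 3 groups overlapped. At the abundance limit, gene9424 averaged 686 CPM at rank 150 and gene1530, the next gene, averaged 682 CPM.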

How the data were processed

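RNA-seq was measured in 12 T. versicolor libraries, 4 groups of 3. The deposited values are raw counts of reads per gene, 1 table per library, with HTSeq summary lines that were kept out of all totals. Per the submitters' processing notes, FastQC, Bowtie2, Bowtie and HTSeq were used. The strand setting, build and annotation were not given in the sources used here, so overlapping, antisense and near-identical genes are uncertain. Genes carry running numbers that the files do not pair with names. The members and lists were chosen with earlier results of these data known. Named by plan are the 10 most abundant members, the member of smallest p in agitated culture and the genes nearest each limit. The plan also held the steadiest and the most variable member, the most abundant gene left out, and members with consecutive numbers. All other genes were named after their values were seen.

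CPM here are counts scaled to 1000000 gene reads per library, and shares are percentages of them. Tests used edgeR 4.0.16 in R 4.3.3: filterByExpr, TMM scaling, 4 group means over 12 libraries leaving 8 residual degrees of freedom, robust quasi-likelihood estimates and Benjamini-Hochberg adjustment over 10505 genes. The 95% intervals use the moderated degrees of freedom. SDs between replicates use TMM-scaled log2 CPM with a prior count of 2. The procedure was tested on simulated data. Alternatives were other scalings, no filter, DESeq2 1.42.0, limma-voom (limma 3.58.1), only agitated libraries, a replicate block and each library left out. Every pair of replicates differed beyond sampling noise (chi-square over its degrees of freedom at least 3.07).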

Additional observations from a re-analysis of the deposited data

How the results depend on the processing

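The set itself varied little: 131 to 137 genes met the rule when each library was left out, with 128 to 133 of the 134 among them, and 133 or more with TMM-scaled CPM or a pseudocount of 0.5. Leaving the most abundant gene out of both share and total put the members' share at 35.6% and 31.5% in static cultures with and without antioxidants and at 30.4% and 29.9% in agitated ones. For antioxidants in agitated culture, 0 members were called in every fit but DESeq2, which called 1. Over all genes the count of 3 became 25 with DESeq2, 0 with only the 6 agitated libraries and 1 with the replicate block, and lay between 0 and 35 when each library was left out. It was 35 without agitated replicate 2 and 17 without agitated replicate 1, both without antioxidants. Without both agitated replicates numbered 1, chosen after seeing the data, it was 42, with 0 members among them. No pairing by replicate number was seen: same-number libraries of the agitated groups correlated at -0.16, -0.17 and -0.01 in their deviations from the group means. Between these groups, agitated antioxidant replicates 1, 2 and 3 correlated at 0.31, 0.27 and 0.29 with replicates 2, 3 and 1 without antioxidants. With replicates 3, 1 and 2 without antioxidants they correlated at -0.15, -0.05 and -0.31. Shared handling under other numbers was not tested.

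Several members near 0 changed sign without single libraries. Their log2 fold changes lay between -0.38 and 0.0035 for gene14264, -0.31 and 0.10 for gene14262, -0.47 and 0.10 for gene14263, -0.34 and 0.20 for gene14394, -0.30 and 0.13 for gene14260, -0.51 and 0.35 for gene14261, -0.34 and 0.068 for gene14265, -0.045 and 0.16 for gene1042, -0.056 and 0.061 for gene4732, -0.51 and 0.52 for gene5608, -0.28 and 0.15 for gene1150, -0.26 and 0.82 for gene4182, -0.30 and 0.15 for gene4440, and -0.15 and 0.26 for gene9424. None of these was called in any fit. gene4732 was at -0.011 with upper-quartile scaling, -0.0057 with DESeq2 size factors and with DESeq2, and -0.0042 with library totals, against 0.01 with TMM. gene5608 was at -0.0080 with library totals, -0.46 with limma-voom and -0.053 with the replicate block, against 0.01. The cause was not tested.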
